A study of Mus musculus with 12 samples.

Results

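Vip interneurons in libraries labelled mouse hippocampus were described from single-nucleus RNA sequencing. They were the nuclei that had at least 1 unique molecular identifier (UMI, a tag that counts 1 captured RNA molecule) of Gad1 or Gad2, at least 1 of Vip, at least 2 of Adarb2, none of Lhx6, none of Slc17a7 or Slc17a6, and fewer than 2 of Mobp. The rule found 274 nuclei among 184957 nuclei with 500 to 10000 detected genes, of 185643 deposited. They came from a class of 52176 GABAergic nuclei that had a Gad1 or Gad2 UMI, no vesicular glutamate transporter UMI and fewer than 2 Mobp UMIs. The study sequenced the left hippocampus of 12 female mice in 4 groups of 3 libraries each, which were 3xTg-AD and WT animals at 6 months and at 12 months. The 3xTg-AD line carries the APPSwe and tauP301L transgenes on a mixed B6;129 background, and the WT animals were described as littermates. In this line the transgenes are driven by a Thy1 promoter, which acts mainly in neurons, so that the mice carry familial mutations at a level set by that promoter. All mice had been given Avertin and perfused, and nuclei were isolated from frozen tissue and sorted by flow cytometry before droplet capture.

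Vip interneurons are GABAergic cells that arise in the caudal ganglionic eminence (CGE) and release vasoactive intestinal peptide. In the hippocampus many of them contact other interneurons, among them somatostatin cells, so that their firing relieves pyramidal cells of inhibition. Others carry cholecystokinin and the CB1 cannabinoid receptor and contact pyramidal cell bodies, and calretinin marks many of those that target interneurons. Acetylcholine and serotonin excite Vip cells through ionotropic receptors.

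The 12 libraries held 10 to 30 Vip nuclei each and 118572 to 240158 UMIs summed over them. A Vip nucleus had a median of 7068.5 UMIs and 2780.5 genes, against a median of 7060 UMIs in all GABAergic nuclei. The 3xTg-AD libraries had 25, 20 and 30 Vip nuclei at 6 months and 23, 18 and 24 at 12 months. The WT libraries had 10, 23 and 24 at 6 months and 20, 29 and 28 at 12 months. No 2 Vip nuclei shared a barcode, although the barcodes of 18 of them were also retained in another library, as were 4187 barcodes in the whole series. The libraries labelled hippocampus also held 10452 GABAergic nuclei that passed a gate for striatal projection neurons (at least 1 Rgs9 UMI, at least 3 of Pde10a and fewer than 2 of Adarb2). The region of origin of the Vip nuclei was not tested.

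Because Vip and Adarb2 chose the nuclei, their values are given as a description. Vip, the peptide that names the class, had 1 UMI in 99 nuclei, 2 or more in 175, and 6 or more in 84. Adarb2, an RNA-editing enzyme homologue that marks CGE interneurons, had 20 or more UMIs in 211 nuclei, and its lowest permitted count of 2 in 8 nuclei. Just outside the rule, 14 nuclei met every other condition with 1 Adarb2 UMI, 117 did so with none, and 7 did so but held Lhx6, a factor of medial ganglionic eminence interneurons. Among the 19872 GABAergic nuclei with 2 or more Adarb2 UMIs and no Lhx6, 1.38% had a Vip UMI (95% exact binomial interval 1.22 to 1.55%, which covers counting error only). The share with a Vip UMI was 0.138% in 9419 oligodendrocyte nuclei of median depth 2937 UMIs and 0.255% in 3527 glutamatergic nuclei of median depth 12093 UMIs. It was 0.275% in the other GABAergic nuclei, meaning those outside the Vip, Lamp5, Sst and Pvalb gates. As that class lost every Vip nucleus by definition, its share was set in part by the rule. Nuclei with exactly 1 Vip UMI made up 0.498% of the Adarb2 class, against 0.127% of oligodendrocyte and 0.255% of glutamatergic nuclei. Those with 2 or more made up 0.881% of it, against 0.0106% of oligodendrocyte nuclei. The Adarb2 class had a median depth of 7172 UMIs, and no shares at equal depth were taken. Whether the single Vip UMIs were stray was not tested.

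The marker genes that the rule did not use separated the nuclei by their Vip count. Prox1, a transcription factor kept by CGE interneurons, had a UMI in 28.3% of the 99 nuclei with 1 Vip UMI, in 49.5% of the 91 with 2 to 5, and in 76.2% of the 84 with 6 or more. Igf1, a growth factor, was found in 25.3%, 60.4% and 85.7% of them, and Npas1, a transcription factor of CGE interneurons, in 23.2%, 49.5% and 67.9%. Synpr, a synaptic vesicle protein, went from 42.4% through 71.4% to 97.6%, and Egfr, a growth factor receptor, from 17.2% through 42.9% to 72.6%. Egfr is also in the list of Lamp5 neurogliaform genes, so that it does not tell Vip cells from those. The median depths of the 3 bins were 8269, 6004 and 7030.5 UMIs, so that the nuclei with 1 Vip UMI were the deepest. After every nucleus was thinned to 4000 UMIs, which left 93, 76 and 70 nuclei, the order was the same for these 5 genes, for example 22.6%, 39.5% and 61.4% for Prox1 and 37.6%, 67.1% and 90.0% for Synpr.

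Some genes found in other GABAergic neurons were more frequent in the nuclei with 1 Vip UMI, and 3 picked examples are given. Chrm2, a muscarinic receptor that is in none of the cell type lists, had a UMI in 41.4% of nuclei with 1 Vip UMI. It had one in 14.3% of those with 2 to 5 and of those with 6 or more. Tcf7l2, a factor of thalamic and midbrain neurons, was found in 18.2%, 3.3% and 4.8%, and Sox6, a factor of medial ganglionic eminence interneurons, in 15.2%, 9.9% and 2.4%. In the 19598 nuclei that met the rule in all but Vip, Chrm2 stood at 40.1%, Tcf7l2 at 20.4% and Sox6 at 19.8%, values close to those of the 1-UMI nuclei. For Prox1 the same Vip-negative nuclei stood at 9.4% and for Igf1 at 10.4%, below the 1-UMI nuclei. By these markers the 175 nuclei with 2 or more Vip UMIs matched the label, while the 99 with a single UMI matched it in part. Prox1, Igf1 and Cnr1 also went with Adarb2, since 128 of the 137 nuclei with a Prox1 UMI, 146 of the 152 with Igf1 and 151 of the 163 with Cnr1 lay among the 211 nuclei with 20 or more Adarb2 UMIs.

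**Figure D1:**
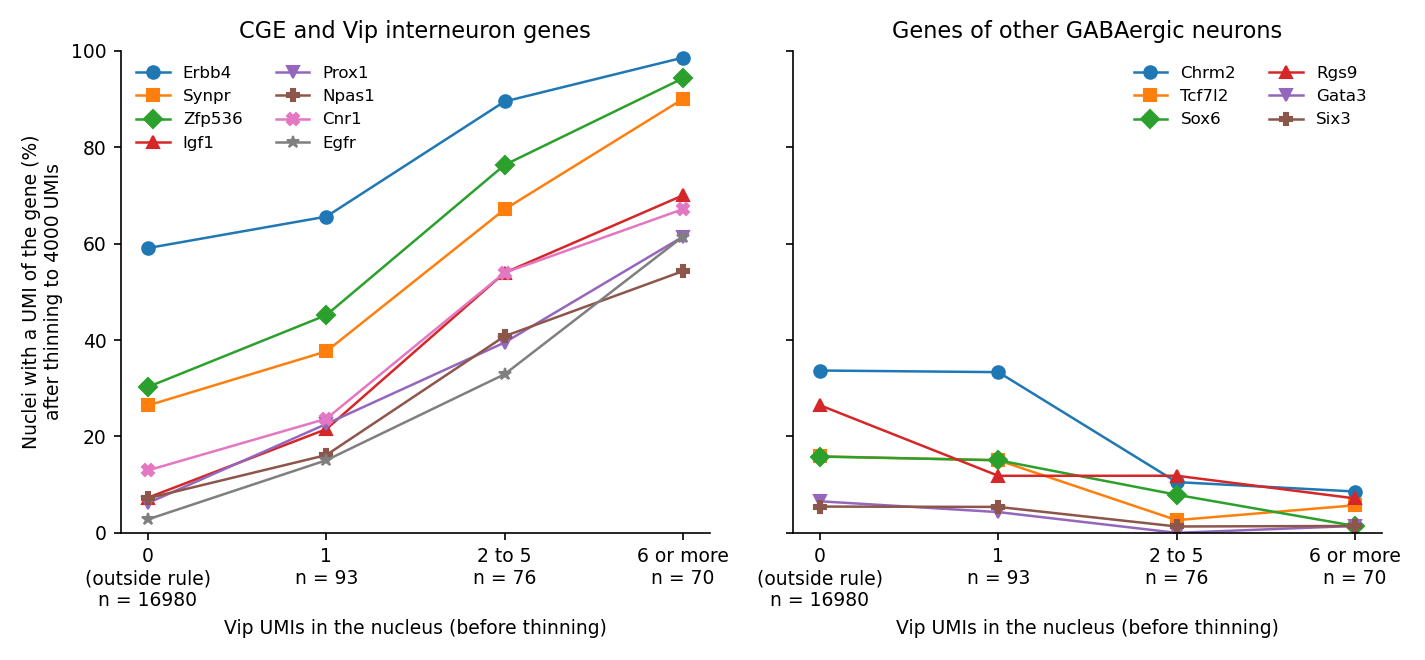
Share of nuclei with a UMI of each gene (vertical axis, percent, after thinning each nucleus to 4000 UMIs) against the number of Vip UMIs in the nucleus before thinning (horizontal axis), with the nuclei that met the rule in all but Vip at the left. Prox1 goes from 6.2% without Vip to 61.4% with 6 or more Vip UMIs, while Chrm2 goes from 33.7% to 8.6%.

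Some markers of other cell types were absent from the Vip nuclei while others of the same lists were seen. No UMI was found of Csf1r, C1qa or Tmem119 among 7 microglial genes, of Cldn5, Rgs5 or Dcn among 8 vascular genes, or of Sim1, Hcrt or Pmch among 12 hypothalamic genes. Of 8 genes of glutamatergic forebrain neurons 5 were detected, Neurod6 and Emx1 not among them, and the list summed to 160 to 458 CPM (UMIs of a gene or list scaled to a common total) over the 12 libraries. At least 3 UMIs of a marker list were found in 219 nuclei for striatal projection neurons, whose list includes Pde10a (2 or more UMIs in 226 nuclei), and in 214 for medial ganglionic eminence interneurons, 163 for Lamp5 neurogliaform cells, 136 for glutamatergic neurons and 21 for thalamic, habenular and midbrain neurons. The same was found in 8 nuclei for astrocytes, 10 for oligodendrocytes, 7 for microglia, 1 for vessels, and 5 each for oligodendrocyte precursors and hypothalamic neurons. The whole lists summed to 5.0 to 211 CPM for astrocytes, 16.96 to 283 CPM for oligodendrocytes and 6.8 to 75.9 CPM for microglia. Every gene of the striatal list of 10 was detected, at 700 to 1736 CPM in sum, of which Pde10a alone, a phosphodiesterase, held 595 to 1670 CPM, and so was every gene of the list of 10 for medial ganglionic eminence interneurons, at 554 to 2172 CPM. No doublet caller was run. As an alternative, nuclei with 3 UMIs of a glial, vascular or striatal list, leaving Pde10a out of the striatal list, or with more than 7500 genes were set aside as possible doublets, which left 227 of the 274.

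Several genes that divide Vip cells into kinds were found in a minority of nuclei, while Cnr1 had a UMI in 163 of 274 (59.5%). Calb2, calretinin, had a UMI in 39 of 274 nuclei (14.2%), against 3.8% of the other GABAergic nuclei (median depth 7034 UMIs) and 1.5% of oligodendrocyte nuclei, and after thinning in 7.5% against 2.1%. Cck, cholecystokinin, had one in 33 (12.0%), against 2.6% and 2.3%, and after thinning in 7.5% against 1.5%. Both shares stood above the other classes, and only 2 nuclei held both genes. Crh, corticotropin-releasing hormone, was found in 35 nuclei (12.8%, against 0.6% of other GABAergic nuclei), Tac2, neurokinin B, in 53 (19.3% against 2.4%) and Htr3a, the serotonin-gated channel, in 30 (10.9% against 0.3%). Penk, the enkephalin precursor, was found in 59 (21.5% against 13.2%). Chat, the acetylcholine-synthesising enzyme, was found in 14 nuclei (5.1% against 1.2%), all of them among the 175 with 2 or more Vip UMIs. Of the genes the rule used, Gad1 and Gad2, which make GABA, had a UMI in 81.4% and 84.3% of the nuclei.

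Summed over a library, the peptides varied widely. Tac2 stood at 47.7 CPM over all Vip nuclei (15.7 to 141 over libraries) against 5.6 in other GABAergic nuclei, and Crh at 24.3 (5.7 to 61.8) against 1.1. Htr3a stood at 18.4 (0 to 67.8) against 0.5, with 1 or more libraries at 0. For Penk the pooled level of 44.5 was near the 41.7 of the other GABAergic class.

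Some of these genes were found more often in nuclei with another of them than in nuclei without it. This describes UMIs in single nuclei with no adjustment for depth or for the Vip count of a nucleus. Of the 33 nuclei with a Cck UMI, 48.5% also had Tac2, 33.3% Htr3a, 27.3% Crispld2 and 87.9% Cnr1, the CB1 receptor. Among the nuclei without Cck the same genes were found in 15.4%, 7.9%, 5.8% and 55.6%. Genes of the Vip nuclei at large were also more frequent with Cck, such as Adra1b (75.8% against 42.7%) and Npas1 (63.6% against 43.2%). Penk (18.2% against 22.0%), Chat and Pthlh were less frequent with it. Crh went with Cxcl14, a chemokine, in 65.7% of 35 nuclei, against 11.7% of the nuclei without Crh. Pthlh, parathyroid hormone-related protein, was seen in 10.3% of the 39 nuclei with Calb2 and in 5.1% of those without. Cnr1 (74.4% against 57.0%), Tac2 (25.6% against 18.3%) and Htr3a (12.8% against 10.6%) were also more frequent with Calb2, and Crispld2 (2.6% against 9.4%) was less frequent. With 2 UMIs required, 5 nuclei were of a Calb2 kind and 13 of a Cck kind, with at most 3 of either in a library, so that the planned test between the kinds, which needed at least 5 nuclei of a kind in a library, could not be made.

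Beyond the genes of the rule, Egfr, Igf1 and Pde5a were among the genes that stood highest in the Vip nuclei relative to the other GABAergic nuclei. Levels are given in CPM, scaled to the UMIs of the class, as the pooled level and the range over 12 libraries, with no test, since the nuclei were chosen by their genes. Egfr, a receptor of the epidermal growth factor family, stood at 232 (94.6 to 413) in Vip nuclei against 16.98 (8.8 to 24.5) in other GABAergic nuclei. Igf1 stood at 251 (118 to 432) against 18.8 (11.8 to 36.0), and Prox1 at 149 (64.7 to 249) against 17 (10.99 to 27.7). Synpr stood at 926 (498 to 1595) against 117 (90.9 to 156). In nuclei of the Lamp5 gate (2 or more Lamp5 UMIs, with Adarb2), Egfr stood at 131, Igf1 at 57.5, Prox1 at 25.4 and Synpr at 140. Only 110 of the 334 nuclei of that gate lacked UMIs of both Rgs9 and Rarb, genes of striatal neurons, and Rarb stood at 592 there. These levels are therefore not those of a clean class of neurogliaform cells. Egfr also belongs to the list of Lamp5 neurogliaform genes, so that it is not particular to Vip nuclei. The libraries of Vip and other GABAergic nuclei did not overlap for these 4 genes. They were picked from the genes with the highest ratio, so that this separation follows in part from the choice. The share of all genes with such a separation was not counted, here or for the class comparisons below. Grpr, the gastrin-releasing peptide receptor, stood at 39.1 against 1.2, Pde5a, a cyclic GMP phosphodiesterase, at 96.3 against 5.1, and Wnt5b at 124 against 10.2. These genes came from the same ranking, which took genes with at least 50 UMIs in Vip nuclei. That each was higher in 12 of 12 libraries thus follows in part from the choice.

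Receptors of neuromodulators ran both ways, and a few are given as examples. Adra1b, an alpha-1 adrenergic receptor, stood at 163 (61.3 to 430) in Vip nuclei, 5.6 in Sst nuclei (GABAergic, with at least 2 Sst UMIs, Lhx6, no Vip and fewer than 2 Adarb2 UMIs) and 15.6 (11.04 to 21.2) in other GABAergic nuclei, with no overlap with the last. Cnr1 stood at 297 (123 to 686), 46.1 (0 to 76.8) and 48.2 (33.1 to 69.0), again without overlap. Chrna7, a nicotinic acetylcholine receptor subunit, stood at 143 (57.7 to 272) against 68.0 in Sst nuclei and 55.2 in other GABAergic nuclei, and Npy1r, a neuropeptide Y receptor, at 47.7 (20.4 to 62.2) against 2.4 and 10.5. Chrm3, a muscarinic receptor, stood at 858 (532 to 1637) in Vip nuclei and 867 (355 to 1381) in Sst nuclei, which overlapped, and at 384 in other GABAergic nuclei. Chrm2 stood lower in Vip nuclei, at 120 (18.5 to 306) against 202 (133 to 278) in other GABAergic nuclei, and so did Htr1f, a serotonin receptor, at 43.6 (8.4 to 236) against 141 (105 to 191), both with overlapping libraries.

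Synaptic genes showed both directions. Erbb4, the neuregulin receptor of interneurons, stood at 5384 (3170 to 10403) in Vip nuclei against 2339 (1495 to 3109) in Sst nuclei and 1446 (1159 to 1829) in other GABAergic nuclei, with no overlap. Grm8, a presynaptic glutamate receptor, stood at 990 against 338 and 508. Grm5, a postsynaptic glutamate receptor, was lower at 1178 (844 to 1578) against 2249 (1653 to 3077) and 2250 (1668 to 2784), and Gria3, an AMPA receptor subunit, stood at 334 against 1033 and 686. The libraries of all 3 classes overlapped for Slc32a1, the vesicular GABA transporter, at 61.2 against 55.7 and 50.8.

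**Figure D2:**
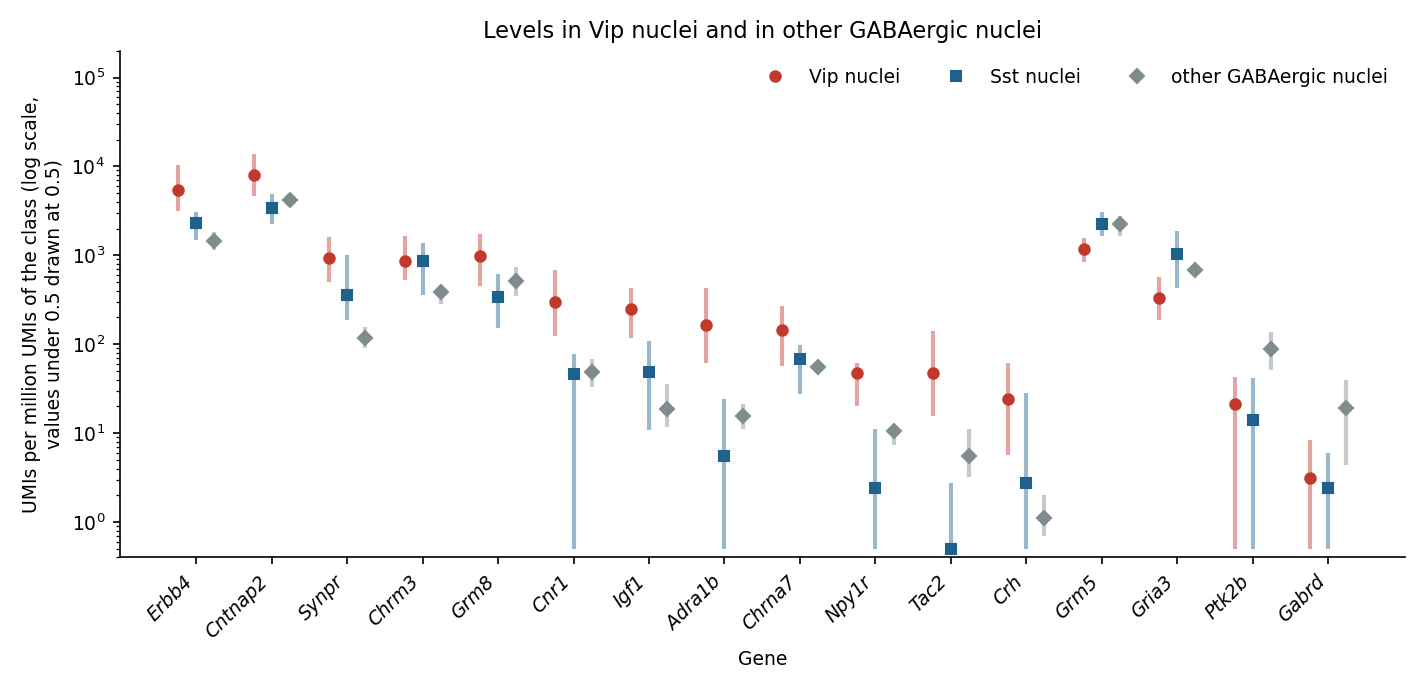
Pooled level of 16 genes (vertical axis, CPM of the class on a log scale, values under 0.5 drawn at 0.5) in Vip, Sst and other GABAergic nuclei, named along the horizontal axis, with vertical bars from the lowest to the highest of 12 libraries. Erbb4 and Synpr stand highest in Vip nuclei, and Grm5 stands at 1178 in Vip nuclei against 2249 in Sst nuclei.

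The genes that were lower in Vip nuclei than in the other GABAergic class included markers of striatal projection neurons. Rarb, a retinoic acid receptor, stood at 29.2 against 337, Rgs9 at 34.2 against 176 and Foxp2 at 79.6 against 353. They were picked from the low end of the same ranking by ratio. That each was lower in 12 of 12 libraries thus follows in part from the choice. The other GABAergic class held the 10452 nuclei of the striatal gate, whose share differed between libraries. Of the genes at the centre of the disease model, App, the amyloid precursor protein, stood at 626 (481 to 871) in Vip nuclei and 536 (504 to 588) in other GABAergic nuclei, and Mapt, tau, at 374 (295 to 458) and 327 (287 to 375), with overlapping libraries in both. Ptk2b, a kinase from the list of genes tied to Alzheimer's disease, stood at 21.1 (0 to 43.3) against 88.8 (50.9 to 138), without overlap.

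The first comparison asked whether Vip nuclei were more or less frequent in 3xTg-AD mice. Among GABAergic nuclei they made up 0.720%, 0.430% and 0.5001% in 3xTg-AD libraries at 6 months and 0.284%, 0.4999% and 0.426% in WT libraries. At 12 months they made up 0.437%, 0.344% and 0.515% in 3xTg-AD libraries and 0.630%, 0.876% and 1.06% in WT libraries. The groups overlapped at 6 months, and at 12 months the WT libraries all stood above the 3xTg-AD libraries. As a share of all retained nuclei the genotypes overlapped at 12 months too, at 0.111 to 0.247% in WT and 0.115 to 0.153% in 3xTg-AD libraries. The means were 0.550 ± 0.151% and 0.403 ± 0.110% at 6 months, and 0.432 ± 0.0855% and 0.854 ± 0.214% at 12 months, for 3xTg-AD and WT in that order (SD, n = 3).

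Over both ages the difference of 3xTg-AD minus WT was -0.137 percentage points (p = 0.31 by a two-sided exact permutation that kept each age apart, 0.62 after Benjamini-Hochberg adjustment over 6 share tests), and that of 12 minus 6 months was 0.166 (exact permutation p = 0.215, adjusted p = 0.62). Within 1 age, 3 libraries against 3 cannot go below an exact permutation p of 0.1, which the 12-month difference of -0.421 reached, and the 6-month difference of 0.147 had p = 0.2. The genotype difference at 12 months minus that at 6 months was -0.568 percentage points (exact permutation p = 0.01, smallest possible 0.005), in a test chosen after the shares had been seen. Leaving out each library in turn gave -0.680 to -0.467 (exact permutation p from 0.01 to 0.04). The exact permutation p was 0.11 with all retained nuclei as the denominator, 0.09 with every nucleus thinned to 2000 UMIs before the rule, 0.06 for nuclei with 2 or more Vip UMIs, 0.05 with GABAergic nuclei outside the striatal gate as the denominator, and 0.02 with the Vip, Lamp5, Sst and Pvalb nuclei as the denominator.

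The makeup of the GABAergic class differed between the same libraries. Nuclei of the striatal gate made up 8.31 to 10.2% of GABAergic nuclei in the 12-month WT libraries, 12.6 to 31.1% in the 12-month 3xTg-AD libraries and 12.99 to 34.3% in the 6-month libraries. The part of this makeup in the share of Vip nuclei was tested only by changing the denominator, as above. The denominator of Vip, Lamp5, Sst and Pvalb nuclei was not free of striatal markers. Only 110 of the 334 nuclei of the Lamp5 gate lacked UMIs of both Rgs9 and Rarb. As the rule needs a Vip UMI, fewer Vip nuclei and less Vip RNA per nucleus cannot be told apart.

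**Figure D3:**
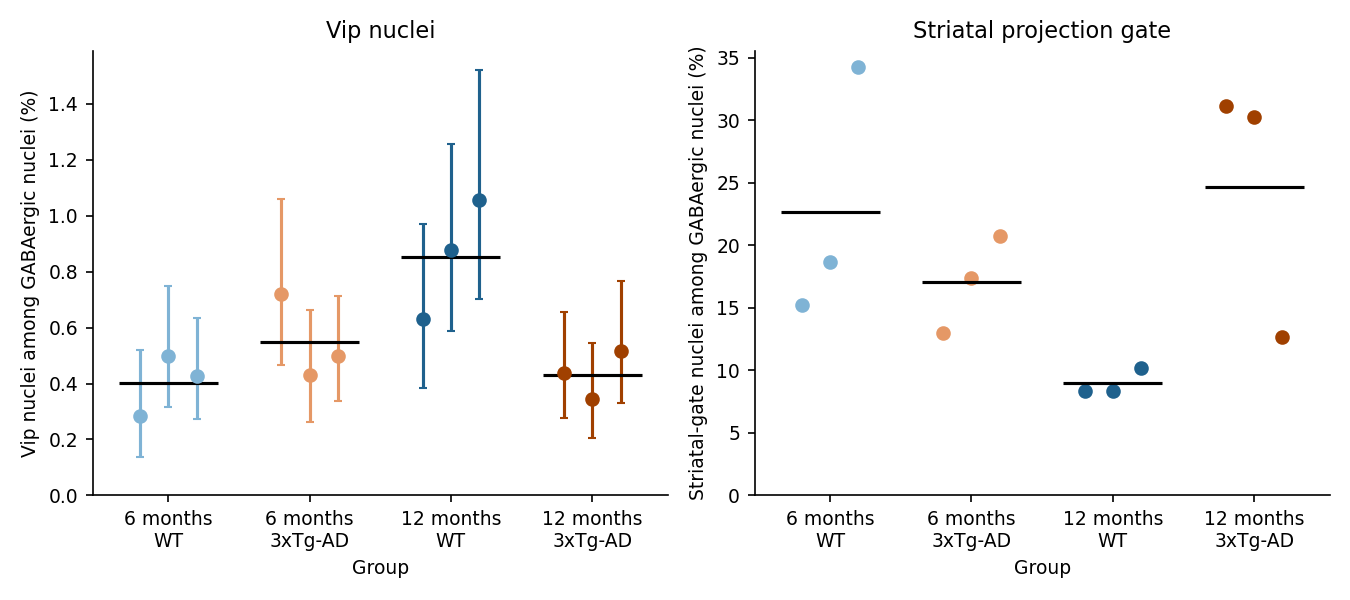
Vip nuclei (left, with 95% exact binomial intervals) and nuclei of the striatal gate (right) as a percent of the GABAergic nuclei of each library, by group, with a line at the mean of 3 libraries. The 12-month WT libraries lie at 0.630 to 1.06% for Vip nuclei, above the 12-month 3xTg-AD libraries, with 1 6-month 3xTg-AD library at 0.720% among them, and they lie lowest for the striatal gate.

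For the shares of the kinds, no test passed. The Calb2 kind made up 0 to 10.0% of the Vip nuclei of a library and the Cck kind 0 to 12.5%. The difference of 3xTg-AD minus WT was 3.26 percentage points for the Calb2 kind (exact permutation p = 0.2) and 0.0106 for the Cck kind (exact permutation p = 1.0), and that of 12 minus 6 months was -1.41 (p = 0.7, exact permutation) and 0.915 (p = 0.79, exact permutation). Every adjusted p over the 6 share tests was above 0.6.

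Next, UMIs summed over the Vip nuclei of each library were compared between genotypes at each age with edgeR's quasi-likelihood test, and a call needed a Benjamini-Hochberg adjusted p under 0.05 with a log2 fold change beyond 0.2 in size. At 6 months 2 of 3450 tested genes were called, or 0.0580%, 1 higher and 1 lower in 3xTg-AD nuclei, while 197 (5.71%) had an unadjusted p under 0.05 and DESeq2 called 3. At 12 months no gene of 3510 passed in edgeR, while 251 (7.15%) had an unadjusted p under 0.05 and DESeq2 called 3. The libraries of the 2 genotypes did not overlap for 345 genes at 6 months, or 10.0% of those tested, and for 412 at 12 months, or 11.7%. Leaving out 1 library moved these counts of calls, to between 1 and 7 at 6 months (7 without 6m_WT replicate 3) and to between 0 and 53 at 12 months (53 without 12m_3xTg-AD replicate 10).

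The genes of the transgenes were read first. App had 644, 523 and 562 CPM in 3xTg-AD against 481, 504 and 553 CPM in WT at 6 months, and 538, 871 and 781 against 613, 683 and 668 CPM at 12 months, with overlap at both ages. Over both ages the App difference was 0.18 on the log2 scale (SE 0.15, edgeR adjusted p = 0.994), that of Mapt 0.18 (SE 0.15) and that of Thy1, whose promoter drives the transgenes, 0.33 (SE 0.28). The reads were counted against the mouse genome, so that human transgene RNA enters these values only as far as it aligned there.

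Gm32647, a long intergenic noncoding RNA (ENSMUSG00000108532, chr7:94042691-94709171, plus strand, mm10), was the gene called higher at 6 months. Its level was 533, 1179 and 373 CPM in the 3xTg-AD libraries and 75.9, 13.1 and 60.9 CPM in the WT libraries, with no overlap. The log2 fold change was 3.77 (SE 0.50, edgeR with Benjamini-Hochberg adjusted p = 0.00539). However, single nuclei held most of these UMIs: 83 of 100, 179 of 237 and 49 of 85 UMIs in the 3 3xTg-AD libraries came from 1 nucleus each, and 56 of the 274 nuclei had any. Without the possible doublets described above, the log2 fold change was 2.28 with adjusted p = 0.544 (edgeR), and with all 12 libraries in 1 fit the adjusted p was 0.138 (edgeR), while it passed in the other 10 of 12 alternatives. At 12 months the level was 18.5, 96.1 and 304 CPM in 3xTg-AD and 742, 579 and 118 CPM in WT libraries, and the other GABAergic nuclei held 403 to 666 CPM in all groups.

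AC149090.1, a protein-coding gene on an unplaced scaffold (ENSMUSG00000095041, JH584304.1, from 52190 to 59690, minus strand, mm10), was the gene called lower at 6 months. Its level was 101, 184 and 114 CPM in 3xTg-AD libraries and 616, 406 and 819 CPM in WT libraries, with no overlap, and 217 of the 274 nuclei had a UMI. The log2 fold change was -2.24 (SE 0.30, edgeR with Benjamini-Hochberg adjusted p = 0.00539), and the adjusted p was 0.0868 without 3xTg-AD replicate 1 and 0.0947 without 3xTg-AD replicate 9. It was also not called with all 12 libraries in 1 fit (edgeR adjusted p = 0.105) or without possible doublets when Pde10a counted for them (0.388), and it passed in 10 of 14 alternatives (edgeR or DESeq2 adjusted p from 7.74e-10 to 0.388). The other GABAergic nuclei of the same libraries showed the same order, at 124 to 201 CPM in 3xTg-AD and 657 to 978 CPM in WT. At 12 months the Vip nuclei held 389, 452 and 739 CPM in 3xTg-AD and 524, 158 and 517 CPM in WT libraries, which overlapped. In the 175 nuclei with 2 or more Vip UMIs the 6-month log2 fold change was -2.40 (edgeR adjusted p = 0.0137).

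At 12 months the gene nearest to the threshold was A330008L17Rik, a long intergenic noncoding RNA (chr8:99416642-99733438, plus strand, mm10). It had 24.7, 28.3 and 73.4 CPM in 3xTg-AD and 163, 221 and 214 CPM in WT libraries, a log2 fold change of -2.15 (SE 0.34, edgeR adjusted p = 0.0507). It passed in 6 of 13 alternatives, DESeq2 among them, with adjusted p from 1.48e-06 to 0.619, and in the nuclei with 2 or more Vip UMIs it had -1.73 (edgeR adjusted p = 0.411). The other GABAergic nuclei followed the same order, at 127 to 196 CPM in 3xTg-AD and 253 to 286 CPM in WT libraries.

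Cnr1, which encodes the CB1 cannabinoid receptor (chr4:33924593-33948831, plus strand, mm10), had 686, 548 and 325 CPM in 12-month 3xTg-AD libraries and 123, 137 and 252 CPM in WT libraries, which did not overlap. The log2 fold change of 1.65 (SE 0.33) did not pass in edgeR (adjusted p = 0.149), passed in DESeq2 (adjusted p = 0.0185), and passed in 4 of 14 alternatives (adjusted p from 8.96e-06 to 0.898). At 6 months the libraries held 282, 209 and 342 CPM in 3xTg-AD and 143, 275 and 266 CPM in WT, with overlap. In the other GABAergic nuclei the genotypes overlapped at 12 months, with 38.2 to 69.0 CPM in 3xTg-AD and 44.0 to 54.8 CPM in WT libraries. Cnr1 had a UMI in 37.4% of nuclei with 1 Vip UMI and in 77.4% of those with 6 or more, and nuclei with 2 or more Vip UMIs made up 82.6%, 61.1% and 58.3% of the Vip nuclei in the 12-month 3xTg-AD libraries and 75%, 69.0% and 57.1% in the WT libraries. In the nuclei with 2 or more Vip UMIs alone, the 12-month log2 fold change was 1.34 (edgeR adjusted p = 0.559).

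**Figure D4:**
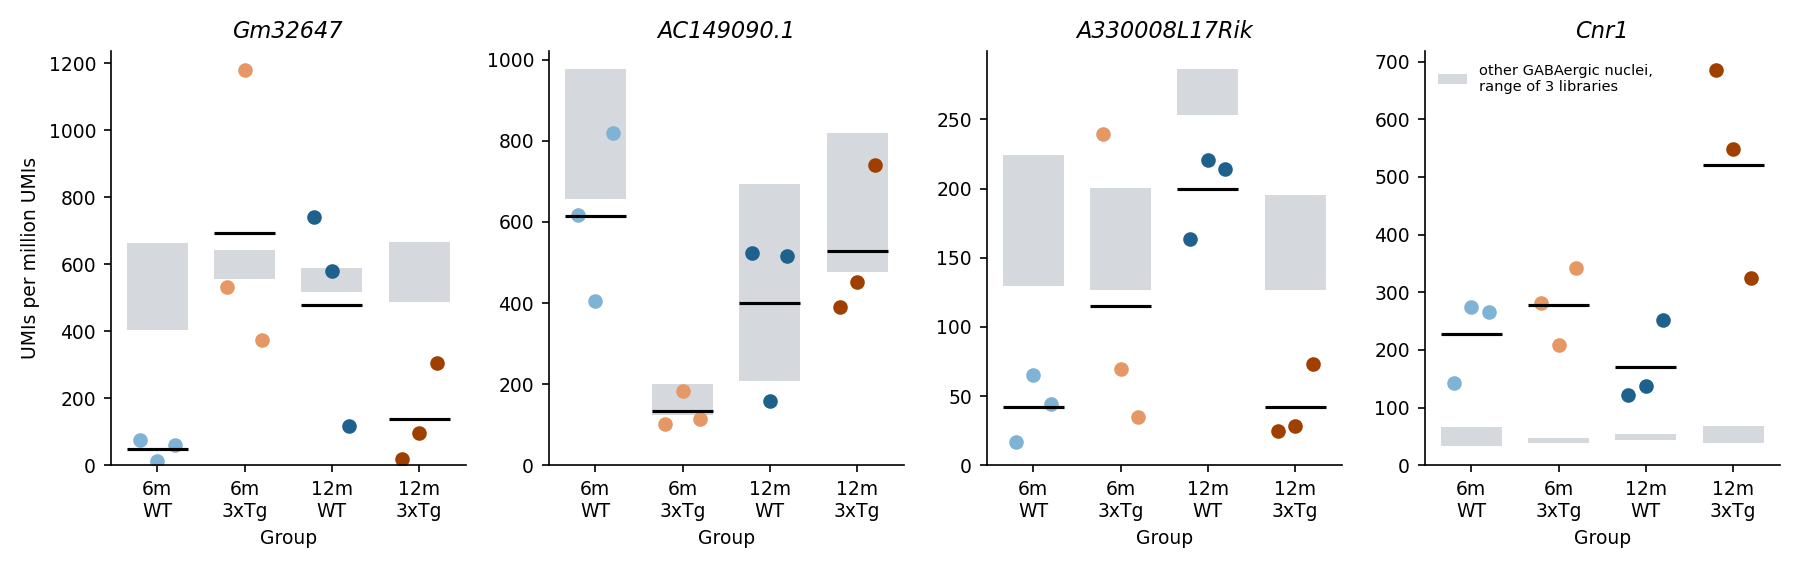
Level in Vip nuclei (vertical axis, CPM, 1 point a library, line at the mean of 3) of Gm32647, AC149090.1, A330008L17Rik and Cnr1 in the 4 groups, with grey boxes from the lowest to the highest of 3 libraries in the other GABAergic nuclei. For Cnr1 all 12 points lie above the boxes, while for AC149090.1 both points and boxes are low in 3xTg-AD mice at 6 months.

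Other genes with separate groups and small p at 1 age did not pass in edgeR with all libraries of that age. At 6 months Ntng1, a netrin-related adhesion molecule, had 304, 532 and 465 CPM in 3xTg-AD against 118, 52.4 and 183 CPM in WT libraries (log2 fold change 1.82, SE 0.35, edgeR adjusted p = 0.140), and it passed in 5 of 14 alternatives (adjusted p from 6.74e-07 to 0.959). Cadps2, a factor of dense-core vesicle release, had 612, 562 and 645 against 177, 249 and 310 CPM (1.25, SE 0.25, edgeR adjusted p = 0.141), and it passed in 1 of 14 alternatives. Cdh7, a cadherin, had 63.9, 54.7 and 61.4 against 169, 170 and 116 CPM (-1.35, SE 0.30, edgeR adjusted p = 0.268). At 12 months the genotypes overlapped for all 3, with Ntng1 at 130, 260 and 529 CPM in 3xTg-AD and 599, 508 and 467 CPM in WT libraries.

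At 12 months Ust, a sulfotransferase, and Qk, an RNA-binding protein, had log2 fold changes of 1.25 (SE 0.26) and 1.204 (SE 0.26), both with edgeR adjusted p = 0.149, and passed in 2 and 1 of 13 alternatives (adjusted p from 0.0152 to 0.910 and from 0.0186 to 0.693). Gm15594, an antisense RNA (chr6:18424684-18427885, plus strand, mm10), had 86.5, 96.1 and 78.6 CPM in 3xTg-AD and 0, 20.8 and 12.6 CPM in WT libraries (2.78, SE 0.54, edgeR adjusted p = 0.149), with a UMI in 79 nuclei, and it passed in 2 of 12 alternatives (adjusted p from 0.000109 to 0.655). At 6 months it had 53.3, 64.7 and 48.3 against 16.9, 32.7 and 33.2 CPM. Its libraries were separate at both ages, and so were those of the other GABAergic nuclei, at 35.8 to 71.6 CPM in 3xTg-AD and 10.99 to 33.8 CPM in WT. Whether its reads came from this strand or from an overlapping gene was not tested.

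The genes of CGE identity, a list of 14 that includes Npas1, Prox1, Dlx1, Synpr, Erbb4 and Igf1, lay on opposite sides of 0 at the 2 ages, with none called. At 12 months all 9 tested members had a log2 fold change above 0 (median 0.66, against 0.0067 over all tested genes), 5 with an unadjusted p under 0.05 and none with an edgeR adjusted p below 0.445. At 6 months 1 of 8 tested members lay above 0 (median -0.48, against -0.020 over all tested genes), 2 had an unadjusted p under 0.05, and the smallest edgeR adjusted p was 0.809. Synpr had 1595, 1306 and 813 CPM in 12-month 3xTg-AD libraries and 960, 558 and 660 CPM in WT libraries, with overlap (log2 fold change 0.84, SE 0.30, edgeR adjusted p = 0.530). At 6 months it had 815, 498 and 1040 CPM against 793, 1087 and 1289 CPM (-0.47, SE 0.28, edgeR adjusted p = 0.956). Prox1 had 90.5, 64.7 and 175 CPM against 127, 249 and 210 CPM at 6 months (-0.87, SE 0.36, edgeR adjusted p = 0.809) and 241, 164 and 147 against 218, 83.3 and 96.7 CPM at 12 months (0.60, SE 0.36, edgeR adjusted p = 0.765).

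Erbb4 had 10403, 7197 and 3979 CPM in 12-month 3xTg-AD and 5290, 3777 and 3510 CPM in WT libraries, where the lowest 3xTg-AD library stood among the WT ones (log2 fold change 0.85, SE 0.34, edgeR adjusted p = 0.602). Npas1 had 148, 220 and 136 against 81.7, 74.9 and 122 CPM, without overlap (0.91, SE 0.30, edgeR adjusted p = 0.445), and it was the member that lay above 0 at 6 months as well (0.47, SE 0.39, edgeR adjusted p = 0.957). Igf1 had 260, 390 and 288 against 293, 221 and 118 CPM at 12 months (0.66, SE 0.31, edgeR adjusted p = 0.686) and 288, 154 and 162 against 236, 432 and 282 CPM at 6 months (-0.71, SE 0.32, edgeR adjusted p = 0.822), with overlap at both ages.

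The difference of the fold changes at 12 minus 6 months had a median of 1.12 over 9 tested members of this list, and no gene passed the interaction test (smallest edgeR adjusted p in the list 0.512). That median was 0.60 without 6m_WT replicate 7 (7 of 9 above 0), 0.61 in the nuclei with 2 or more Vip UMIs (6 of 8), 0.76 without the possible doublets described above and 0.21 when Pde10a also counted for them (3 of 5), a fit that rested on 50 nuclei and lacked 12m_3xTg-AD replicate 6. At 6 months the list's median was -0.28 without 6m_3xTg-AD replicate 5 and -0.24 without 6m_WT replicate 7. Prox1, Igf1, Npas1 and Synpr of this list also went with the Vip count of a nucleus. In the nuclei with 2 or more Vip UMIs the median was 0.35 over 8 tested members at 12 months and -0.33 over 7 at 6 months, smaller in size than in all Vip nuclei. Without the possible doublets (Pde10a not counted) it was 0.29 over 8 at 12 months, with 7 above 0. Other lists lay above 0 at 12 months as well, with 3 of 4 tested Lamp5 neurogliaform genes (median 0.75, 2 with an unadjusted p under 0.05, smallest edgeR adjusted p 0.164), Pde10a as the only tested striatal gene (0.65, edgeR adjusted p = 0.530) and 3 of 3 stress and ribosomal genes (median 0.38). Of 3 tested genes of medial ganglionic eminence interneurons 1 lay above 0 (median -0.43). At each age the CGE identity list lay lower in the genotype with the higher mean share of Vip nuclei. The part of these genes and of the makeup of the Vip class in the CGE identity list was not tested beyond this.

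**Figure D5:**
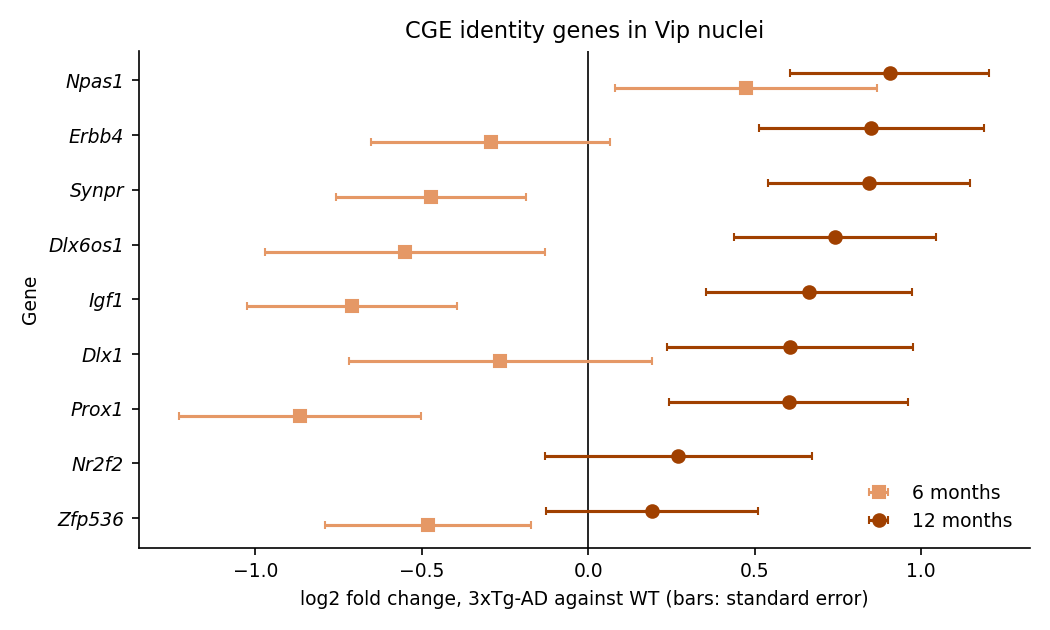
Log2 fold change of 3xTg-AD against WT (horizontal axis, bars of 1 standard error, edgeR) for the tested genes of the CGE identity list at 6 months (squares) and 12 months (circles). All 9 circles lie above 0 and 7 of 8 squares below, and no gene passed the adjusted threshold.

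Receptors and peptides were counted in the same way. Among neuromodulator receptors 8 of 11 tested lay above 0 at 12 months (median 0.58, 3 with an unadjusted p under 0.05) and 4 of 10 at 6 months (median -0.16), with none called at either age. Chrm3 had 746, 532 and 566 CPM in 3xTg-AD against 1054, 1637 and 979 CPM in WT libraries at 6 months, without overlap (log2 fold change -1.04, SE 0.27, edgeR adjusted p = 0.382), and 1249, 1074 and 917 against 803, 633 and 601 CPM at 12 months, again without overlap and in the other direction (0.74, SE 0.25, edgeR adjusted p = 0.459). The difference of the 2 fold changes was 1.76 (SE 0.37) and had an edgeR adjusted p of 0.0993, so that it did not pass. Adra1b had 303, 430 and 89.1 against 61.3, 83.3 and 122 CPM at 12 months (1.65, SE 0.45, edgeR adjusted p = 0.235), with overlap.

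Ion channels (15 of 24 above 0 at 12 months, median 0.065), glutamate receptors (10 of 21, median -0.091), GABA receptors (7 of 12, median 0.085) and genes of synaptic adhesion (11 of 19, median 0.15) lay near the median of all genes at 12 months, and no member was called in edgeR. An unadjusted p under 0.05 was found for 4 of the 24 ion channels (16.7%), 5 of the 21 glutamate receptors (23.8%) and 3 of the 19 adhesion genes (15.8%). These shares stood above the 7.15% of all genes tested, while no GABA receptor had such a p. Genes of GABA synthesis and transport had 3 of 7 above 0 (median -0.061). Peptides and their processing enzymes had 8 of 9 above 0 at 12 months (median 0.53, 2 with an unadjusted p under 0.05) and 2 of 8 at 6 months (median -0.31). Of 12 immediate early genes none was counted highly enough to be tested within an age, for genotype over both ages or for age, and 2 were tested for the interaction, where none was called (smallest edgeR adjusted p 0.485, for Egr1). Genes tied to Alzheimer's disease had 4 of 10 above 0 at 6 months (median -0.11) and 6 of 11 at 12 months (median 0.042), with none called.

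With both ages in 1 fit, no gene of 3873 was called for genotype in edgeR, 171 (4.42%) had an unadjusted p under 0.05, and DESeq2 called 0. All 6 libraries of a genotype stood apart from the 6 of the other for 7 genes, or 0.181%. The largest of the separate differences were Gm15594 (log2 fold change 1.84, SE 0.40, edgeR adjusted p = 0.429) and Igsf3, an immunoglobulin superfamily member (-0.95, SE 0.22, edgeR adjusted p = 0.474). Dhx36, a helicase, had a log2 fold change of -0.62 (SE 0.17), Uggt1, a glucosyltransferase of protein folding, 0.76 (SE 0.24), and Ago1, an Argonaute protein, 0.79 (SE 0.26), none with an edgeR adjusted p under 0.8.

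For age, no gene of 3873 was called in edgeR, 163 (4.21%) had an unadjusted p under 0.05, and DESeq2 called 2. The 2 ages were separate for 4 genes, or 0.103%. Pdzd2, a PDZ domain protein, had 197, 249, 224, 143, 472 and 409 CPM in the libraries of 6 months and 117, 141, 142, 81.7, 137 and 143 CPM in those of 12 months (3xTg-AD first), with log2 fold change -1.13 (SE 0.25, edgeR adjusted p = 0.566). The highest 12-month library fell just under the lowest 6-month one, at 142.9 against 143.4 CPM. Nkain2, a subunit that binds the sodium pump, had 1899 to 2379 CPM at 6 months and 2553 to 3469 CPM at 12 months (0.44, SE 0.14, edgeR adjusted p = 0.980, DESeq2 adjusted p = 0.0410). In the other GABAergic nuclei it had 2902 to 3574 CPM in 12-month 3xTg-AD and 2121 to 2577 CPM in 12-month WT libraries. Ring1 and Srsf3 had log2 fold changes of 0.65 (SE 0.23) and 0.57 (SE 0.25) and did not pass.

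The interaction of genotype and age called no gene of 4202 in edgeR (316, or 7.52%, with an unadjusted p under 0.05, smallest adjusted p 0.0817), while DESeq2, which gave an adjusted p to 944 genes, called 11, and edgeR called 23 without 12m_3xTg-AD replicate 10. The genes nearest to the threshold included Gm32647 (difference of log2 fold changes -5.48, SE 1.01, edgeR adjusted p = 0.0817) and AC149090.1 (2.69, SE 0.54, edgeR adjusted p = 0.0956), both described above. The genotype difference in Vip nuclei was also set against that in 334 nuclei with 2 or more Lamp5 UMIs and Adarb2, and in 258 Sst nuclei of the same libraries. The genotype difference was called as different between Vip and Lamp5 nuclei for no gene of 5587 in edgeR (217, or 3.88%, with an unadjusted p under 0.05, DESeq2 0). Between Vip and Sst nuclei it was called as different for no gene of 5219 (236, or 4.52%, DESeq2 0). The Lamp5 nuclei held Rgs9, a gene of striatal neurons, in 59.6%, so that they were not a clean class of neurogliaform cells. With a Lamp5 gate that left out nuclei with Rgs9 or Rarb, chosen after the data had been seen, edgeR called 2 of 5044 genes, both with a lower genotype difference in Vip nuclei (smallest adjusted p 0.00345). Npas1 was among the genes of smallest p against Sst nuclei, after Gm2516, and its genotype difference over both ages was higher in Vip nuclei by 2.39 on the log2 scale (SE 0.48, edgeR adjusted p = 0.148). That value exceeds the difference within Vip nuclei at either age given above, so that it rests in part on the Sst nuclei. Npas1 was low there, at 28.2 CPM pooled.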

How the data were processed

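Nuclear RNA of 12 libraries was captured with 10x 3′ v3 chemistry and sequenced on a NovaSeq. The authors deposited 1 matrix of whole-number UMI counts per library, made with Cell Ranger 6.1.1 against mm10 according to the submitters' processing notes. The methods name ambient RNA removal and integration as later steps, which were not repeated here. Whether the deposited counts precede that removal is not given in the sources used here, so that free RNA may remain in them. Library totals were 79177051 to 128323908 UMIs. Nuclei with 500 to 10000 genes were kept and gated on raw UMIs, with no doublet caller. UMIs of the Vip nuclei were summed per library and tested with edgeR 4.0.16 (quasi-likelihood, TMM, filterByExpr) in R 4.3.3, checked on simulated data. DESeq2 1.42.0 was an alternative, with others on filters, scaling, depth and libraries left out. Shares were tested by exact permutation over libraries, with scipy 1.17.1 for intervals. Each library is 1 replicate. Members of the marker and pathway lists could be named, and per comparison the called genes or the 5 of smallest p with separate groups. Cnr1, Reln, Chrm3 and Npas1 are named as list members. The rule, lists and tests were chosen with earlier results of these data known. Positions come from the GENCODE annotation of mm10. Some genes and an allele are not reported here.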

Additional observations from a re-analysis of the deposited data

Results flagged for a closer look

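The mean share of Vip nuclei among GABAergic nuclei was higher in 3xTg-AD than in WT libraries at 6 months and lower at 12 months. Neither difference passed by itself, and with all retained nuclei as the denominator the genotypes overlapped at both ages. The difference of 3xTg-AD minus WT was 0.147 percentage points at 6 months and -0.421 at 12 months, and the latter minus the former was -0.568 (-0.568129 unrounded, exact permutation p = 0.01, in a test chosen after the shares had been seen). With all nuclei of the rule and GABAergic nuclei as the denominator, it was the only share test with a p under 0.05. It was not under 0.05 with all retained nuclei as the denominator (-0.0935, exact permutation p = 0.11), with GABAergic nuclei outside the striatal gate as the denominator (-0.494, exact permutation p = 0.05), with thinned nuclei (-0.272, exact permutation p = 0.09) or with 2 Vip UMIs required (-0.325, exact permutation p = 0.06). With the Vip, Lamp5, Sst and Pvalb nuclei as the denominator it stayed under 0.05, as given above. In that denominator only 110 of the 334 Lamp5 nuclei lacked UMIs of both Rgs9 and Rarb, genes of striatal neurons. Without possible doublets (Pde10a not counted), mean shares were 0.456% in 3xTg-AD and 0.343% in WT at 6 months. At 12 months they were 0.357% and 0.699%.

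Outside the rule, 55 GABAergic nuclei had 2 or more Vip UMIs but 0 or 1 Adarb2 UMIs, at a median depth of 5569 UMIs. Lhx1 and Rgs16 each had a UMI in 22 of them and Six3 in 21, against 10, 11 and 13 of the 274 Vip nuclei. Nms, neuromedin S, was found in 16.4% against 0.365%. All 4 genes belong to a list for hypothalamic neurons of the suprachiasmatic nucleus and its surroundings. Prox1 was found in 5.45%, Igf1 in 3.64% and Cnr1 in 7.27% of these nuclei, against 137, 152 and 163 of the 274 Vip nuclei. They formed no group of their own in a comparison, but were counted among the other GABAergic nuclei.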

How the results depend on the processing

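Counts of called genes in edgeR rested on the filter and on single libraries. Without the filter on low counts they were 40 at 6 months, 44 at 12 months, 20 over both ages, 25 for age, 60 for the interaction, 12 against Lamp5 nuclei and 14 against Sst nuclei. DESeq2 called 3 at 12 months, 2 for age and 11 for the interaction. With UMIs thinned to the smallest library there were 2 calls at 12 months and 4 for the interaction. Without possible doublets there were 0 calls at 6 months, and with Pde10a not counted for them 2 at 12 months. With all 12 libraries in 1 fit there were 0 calls at 6 months, with 2 or more Vip UMIs 2 over both ages, and with a Lamp5 gate lacking Rgs9 and Rarb 2 against Lamp5 nuclei. Leaving out each library in turn gave 1 to 7 calls at 6 months (7 without 6m_WT replicate 3), 0 to 53 at 12 months and 0 to 23 for the interaction (the highest of both without 12m_3xTg-AD replicate 10), 0 to 1 for age, 0 to 3 against Sst nuclei, and 0 for the others.

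The genotype difference in the Cck kind turned to -2.10 percentage points with 2 or more Vip UMIs and ran from -1.39 to 1.80 with libraries left out. Its age difference turned to -0.571 after thinning and -1.64 with 2 or more Vip UMIs, and ran from -0.870 to 2.64. With libraries left out, the Vip share differed by -0.193 to -0.0870 for genotype and 0.116 to 0.222 for age, and the Calb2 kind by 1.93 to 4.43 and by -2.57 to -0.0741. In all 12 values turned direction, all in the Cck kind. The causes were not tested. The median of the CGE identity list ran from -0.69 to -0.24 at 6 months and from 0.45 to 0.91 at 12 months with libraries left out. The test of Calb2 against Cck nuclei and its alternatives were not run, since no library held 5 nuclei of a kind. Possible doublets counted with Pde10a left 50 nuclei and none in 12m_3xTg-AD replicate 6, which that fit dropped. At 10 to 30 nuclei a library, a missed call does not show that levels were alike. No paired analysis was possible because the groups share no replicate numbers.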

Other observations

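Several genes set Vip nuclei apart from most GABAergic nuclei but not from Sst nuclei, as a description of pooled CPM. Tcf4, a transcription factor, stood at 1842 in Vip, 1810 in Sst and 348 in other GABAergic nuclei, and Maf, a factor of cortical interneurons, at 159, 169 and 23.4. Shisa6, an auxiliary subunit of AMPA receptors, stood at 502, 471 and 130. Others were higher in Vip nuclei than in both classes, such as Kcnt2, a sodium-activated potassium channel, at 826, 150 and 192, and Zbtb16, a transcription factor, at 334, 55.3 and 65.3. Bcl11a, a transcription factor, was lower, at 55.8 in Vip nuclei against 502 and 172. Cntnap2, a neurexin family adhesion molecule, stood at 8081 against 3448 and 4212.

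Reln, an extracellular glycoprotein of many interneurons, had 290, 322 and 294 CPM in 12-month 3xTg-AD and 116, 133 and 193 CPM in WT libraries. The groups did not overlap, as for 11.7% of the genes tested at that age, and the log2 fold change of 1.08 (SE 0.24) did not pass in edgeR (adjusted p = 0.164). At 6 months it had 138, 194 and 206 CPM against 194, 210 and 66.4 CPM, with overlap.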
